A study of Mus musculus with 11 samples.

Results

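The genes Ier2, Ier3 and Ier5 of the immediate early response genes and Zfp36, Zfp36l1 and Zfp36l2 of the tristetraprolin family were followed across 11 samples of mouse gingival epithelium. They were taken by name from the deposited table and are 6 of the 19170 genes with a value. The families were chosen by the difference in normalized counts between the treatments that had already been seen in these same mice, so those differences are given below as a description, without a test. Every animal was a male Langerin-DTR mouse, which carries the diphtheria toxin receptor in cells that express langerin, and the receptor was therefore also present in the controls. The control group (PBS, n = 5) was injected with PBS and the depleted group (DT, n = 6) with Diphtheria toxin at the ages of 17, 24 and 31 days. Epithelium was collected at 8 weeks of age. By then, according to the study, the Langerhans cells had come back. The question put by the design is how the loss of these antigen-presenting cells around weaning affects the adult gingival epithelium.

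Immediate early genes are transcribed within minutes of a stimulus, from transcription factors that are already present in the cell, and most of their mRNAs are short-lived. The IER proteins belong to this class. IER3 influences survival and ERK signalling, and IER5 brings the phosphatase PP2A to the heat shock factor HSF1. The Zfp36 genes encode zinc-finger proteins that bind AU-rich elements in the 3′ untranslated region (UTR) of mRNAs, many of which encode cytokines and growth regulators. They recruit the CCR4-NOT deadenylase, which removes the poly(A) tail and exposes the mRNA to decay. ZFP36 itself, or tristetraprolin, is held inactive by phosphorylation through the p38 and MK2 kinases, and its own mRNA carries AU-rich elements and is among its targets.

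The pentamer ATTTA is the core of an AU-rich element, and the windows that follow show it in capitals in members of both families, because the Zfp36 proteins bind such elements. Each window is the 30 bases of the 3′ UTR with the most pentamers (the first such window where several tie), read 5′ to 3′ from GENCODE M21 transcripts on GRCm38. The coordinates are chr17:35822485-35822514 (plus strand) for Ier3, chr1:155096846-155096875 (minus) for Ier5, chr7:28376958-28376987 (minus) for Zfp36 and chr12:80108431-80108460 (minus) for Zfp36l1.
Ier3: taattaatATTTAtgtATTTAtgtatatcc
Ier5: gaggttggctaaATTTAattctcatgtagc
Zfp36: cctttATTTAtgacgactttATTTAttgta
Zfp36l1: cttATTTAacttatcaaaacgtATTTAttg

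Over the whole 3′ UTR, ATTTA was found in 5 of the 6 genes and the longer TATTTAT, which contains it, in 4 of them. Among 14600 genes with a 3′ UTR of at least 100 bases, 70.9% held ATTTA and 30.2% held TATTTAT. Ier3 was the densest, with 5 pentamers in 613 bases or 8.16 per kb, and 99.1% of those UTRs had a lower density. Zfp36l1 carried 9 in 1835 bases (4.91 per kb), Zfp36 carried 3 in 774 bases (3.88 per kb) and Zfp36l2 carried 5 in 1822 bases (2.74 per kb), against a median of 1.22 per kb over those UTRs. Ier5 held 2 in 2143 bases, none of them part of TATTTAT. In Ier2 the 755 bases of the 3′ UTR held no ATTTA. A match is a description of the letters and not of binding.

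Upstream of the start, 7 motifs of factors that act on early response genes or on the core promoter were searched on both strands in the 250 bases before each RefSeq start (GRCm38.p6). Entries were matched for 4 of the 6 members, Ier3, Ier5, Zfp36 and Zfp36l1. The windows below are 30 bases around the motif of each that is least common among all promoters, shown because Zfp36, Ier3 and Zfp36l1 each held a different one. Capitals mark the match. They lie at chr17:35821611-35821640 (plus strand), chr1:155099665-155099694 (minus), chr7:28379267-28379296 (minus) and chr12:80113124-80113153 (minus).
Ier3: tgcgaagggcGGAGTTCCCCccggcccggc
Ier5: cggcgctttgtgATTGGcgttcgaggagca
Zfp36: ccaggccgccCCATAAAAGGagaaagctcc
Zfp36l1: gaccgcatggcTGATTCAacctcagtgtca

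The Zfp36 window holds a CArG box, the site of serum response factor, at -58 from the RefSeq start, and 1.47% of 32851 promoters of the same length hold one. The Ier3 window holds an NF-kB motif at -92, read on the opposite strand, as do 3.90% of promoters. In Zfp36l1 the pattern TGANTCA began at -129 (6.75% of promoters), matched as TGATTCA. The AP-1 consensus has C or G at the central base, so this match with T is not that consensus. TATAAA began at -29 (12.4%), and ATTGG, the reverse of CCAAT, at -24, sharing a letter with the TATAAA match. Ier3 held CCAAT at -244 and -175 and Ier5 held ATTGG at -108 and -46, beside 33.8% of all promoters. The CREB motif TGACG (17.8% of promoters) and the heat shock motif GAANNTTC (6.69%) were not found in these windows of the 4 genes.

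The depth estimated from the deposited values was 17509328 to 24325513 reads per mouse. The epithelial label was checked against 10 keratinocyte genes, which together held 2534910 to 2621170 normalized counts (read counts divided by the size factor of the mouse) after PBS and 2585090 to 2817220 after DT. Other cell types were scarcer. Neutrophil markers (S100a8, S100a9, Csf3r and Cxcr2, the 4 of 6 genes with values) summed to 688–3383 after PBS and 673–3716 after DT, a wide range in both groups. Which cells gave these counts was not tested. Sums were at most 541 for T cells, 534 for macrophages and monocytes, 1594 for fibroblasts and 138 for endothelium. The 7 Langerhans cell markers summed to 2630–5690 after PBS and 1992–3547 after DT, each with a lower mean after DT and none past the threshold. The 5 B and plasma cell markers were also each lower in mean, with sums of 12.6–63.7 and 10.98–26.4. Whether these shifts have a part in the values below was not tested, and in whole epithelium fewer cells of a type and less RNA per cell cannot be told apart. On the first principal component of the 500 most variable genes (36.0% of their variance) PBS 3 (17.2) and PBS 5 (20.9) stood apart from the other PBS mice (-13.0 to -11.9), while the DT mice lay between -9.09 and 10.5. Results are therefore also given without PBS 3 and PBS 5.

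Ier2 encodes a nuclear immediate early protein and is a single-exon gene on chromosome 8 (84661331–84662852, minus strand, GRCm38; ENSMUSG00000053560). It had 2721, 2315, 2859.5, 3243 and 2332 normalized counts in PBS mice 1 to 5. After DT the lowest value was 3880.4, the median 4404 and the highest 5154. Every DT mouse lay above every PBS mouse. The means were 2694 ± 389 (SD, n = 5) and 4533 ± 505 (SD, n = 6), a ratio of 1.68, and the difference was 0.75 (SE 0.091) on the log2(normalized count + 1) scale used throughout. With PBS 3 and PBS 5 left out it was 0.72.

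Ier3 has 2 exons on chromosome 17 (35821684–35822923, plus strand; ENSMUSG00000003541). Its values were 673, 699.7, 966, 701 and 920.2 normalized counts in PBS mice 1 to 5. DT mice ranged from 796 over a median of 1027 to 1373. The groups overlapped, and the overlap came from PBS 3 and PBS 5, since the other 3 PBS mice lay below the lowest DT mouse. Means of 792 ± 139 (SD, n = 5) and 1053 ± 205 (SD, n = 6) gave a log2 difference of 0.41 (SE 0.128), which was 0.58 without those mice.

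Ier5, the HSF1 regulator, is a single-exon gene on chromosome 1 (155096361–155099636, minus strand; ENSMUSG00000056708). It had 1438, 1477, 1831, 1411 and 1721 normalized counts after PBS, and 1637, 1696 and 1961 as the lowest, median and highest values after DT. Again PBS 3 and PBS 5 were the highest controls, and only 1 DT mouse exceeded them both. The means were 1575 ± 188 (SD, n = 5) and 1746 ± 126 (SD, n = 6). The log2 difference was 0.15 (SE 0.073), and 0.27 without PBS 3 and PBS 5. The related gene Ier5l, which is not among the 6, was lower in mean after DT, at 184 ± 54.1 against 147 ± 20.1 (log2 difference -0.29, SE 0.160), with overlapping groups and a difference of 0.00033 without PBS 3 and PBS 5.

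Zfp36, which encodes tristetraprolin, lies on chromosome 7 (28376784–28380253, minus strand; ENSMUSG00000044786). PBS mice 1 to 5 had 3811, 2863, 3424, 5573 and 2240.1 normalized counts. DT mice had at least 6209.7, with a median of 7437 and a maximum of 9133. The groups did not overlap, although PBS 4 came close to the lowest DT mouse. This was the widest spread of the 6 genes among controls, with a coefficient of variation (CV) of 35.2% after PBS and 14.5% after DT, where the counting error alone is 1.31%. The means of 3582 ± 1261 (SD, n = 5) and 7416 ± 1075 (SD, n = 6) differed 2.07-fold, a log2 difference of 1.10 (SE 0.170). It was 0.90 without PBS 3 and PBS 5.

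The paralogs encode proteins with the same pair of zinc fingers. Zfp36l1 (chromosome 12, 80107754–80113013, minus strand; ENSMUSG00000021127) had 5688, 5627, 5858, 5789.9 and 5974 normalized counts after PBS, and 5383, 6197 and 6891 as the lowest, median and highest values after DT. The controls were nearly alike, with a CV of 2.38%, whereas the DT mice spread around them with a CV of 8.92%. The log2 difference was 0.07 (SE 0.059).

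Zfp36l2 (chromosome 17, 84183931–84187947, minus strand; ENSMUSG00000045817) had 3564, 2981, 3381, 3350.3 and 2939 normalized counts after PBS, and 2970.5, 3279.6 and 3700.0 as the lowest, median and highest values after DT. The groups overlapped almost entirely, and the log2 difference was 0.03 (SE 0.069). The differences of these paralogs without PBS 3 and PBS 5 were 0.09 for Zfp36l1 and 0.0079 for Zfp36l2. The remaining paralog of the family, Zfp36l3, is listed without a value.

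Opposite-strand genes overlap Zfp36 (Gm44710) and Zfp36l2 (Gm36279) in the annotation, with means of 4.62 and 3.85 normalized counts, and reads of an overlap cannot be assigned to either without the strand setting of the counting, which is not given in the sources used here.

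**Figure D1:**
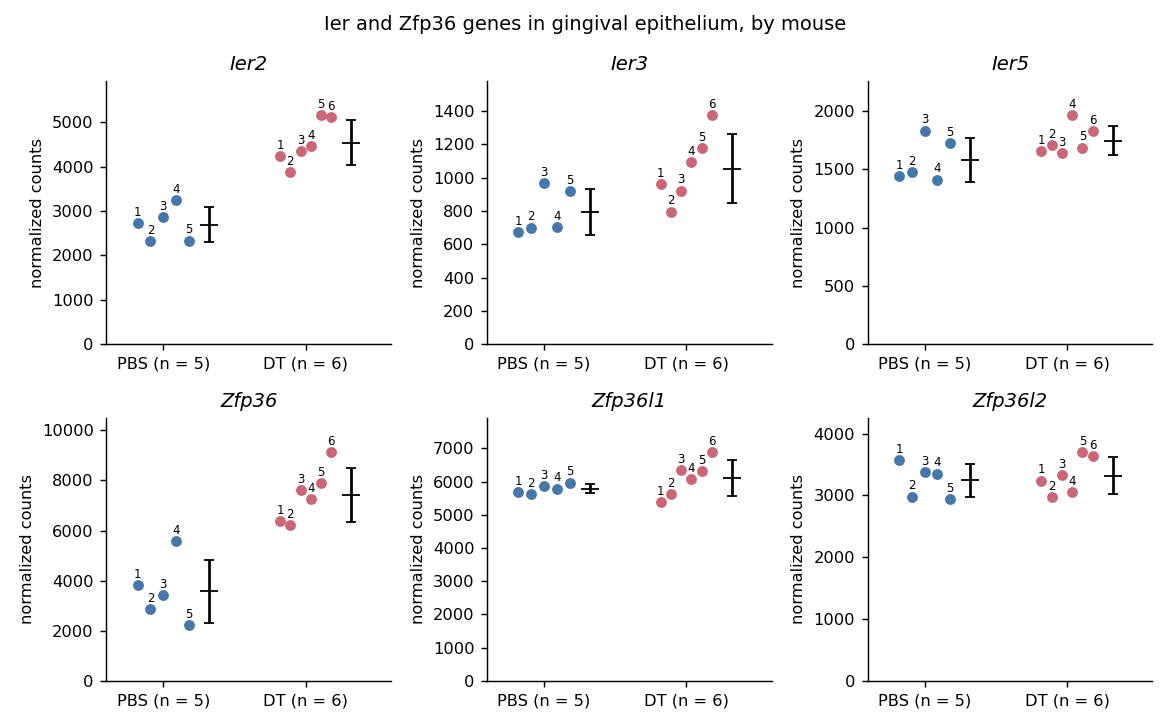
Normalized counts (vertical axes, from 0) of the 6 genes in each mouse, numbered within PBS (blue, n = 5) and DT (red, n = 6), with black bars for the mean ± SD. The groups are apart for Ier2 and Zfp36, while for Ier3 and Ier5 PBS 3 and PBS 5 lie among the DT mice.

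All 6 genes had a higher mean after DT. The median of their log2 differences was 0.28, and that over all 19170 genes was -0.01. In the fit across all genes (limma with Benjamini-Hochberg adjustment, adjusted p under 0.1), 0.558% of genes were past the threshold, 0.313% higher and 0.245% lower after DT. Of the 6 members 2, Ier2 and Zfp36, were past it and 4 were not. Groups did not overlap for the same 2 genes and for 2.11% of the 13477 genes whose mean reached 10. Nothing is read from these counts, since the members were proposed with this contrast known. Without PBS 3 and PBS 5 the members past it were 4, with Ier3 and Ier5 added, and the genes past it rose from 107 to 1967, so that this count too went up with the background.

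**Figure D2:**
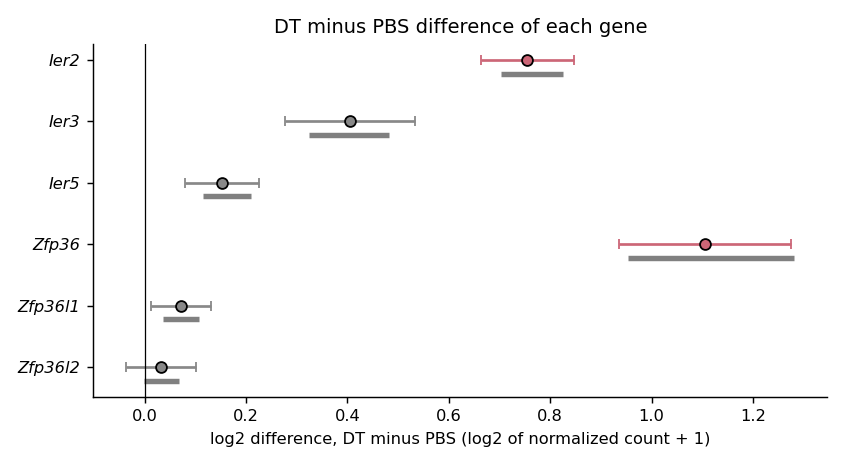
Difference of each gene, DT minus PBS, in log2(normalized count + 1) (horizontal axis). Points with bars are the estimate ± SE over 11 mice, red where past the adjusted p of 0.1 in the fit over all genes, and the grey line below each is the range over the 11 fits that left out 1 mouse. Zfp36 spans 0.95 to 1.28 and Ier2 0.70 to 0.82, and Zfp36l2 reaches 0.

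To compare the genes with each other, levels were divided by exonic length (all exons of a gene joined, GENCODE M21). The order of the mean level was Ier2, Zfp36l1, Zfp36, Zfp36l2, Ier3 and Ier5. All were among the more abundant genes, with 91.7% (Ier5) to 98.3% (Ier2) of 19121 genes at a lower level per kb. The order was not the same in both groups. After PBS Zfp36l1 came first with 1936 ± 46.0 normalized counts per kb (SD, n = 5), followed by Ier2 with 1770.2 ± 255 and Zfp36 with 1032 ± 363. After DT Ier2 came first with 2979 ± 332 (SD, n = 6), followed by Zfp36 with 2137 ± 310 and Zfp36l1 with 2042 ± 182. With these lengths the lower 3 places were the same in both groups. Zfp36l2 had 919 ± 76.9 and 940.1 ± 84.3, Ier3 700.2 ± 123 and 931 ± 182, and Ier5 481 ± 57.5 and 533 ± 38.3 normalized counts per kb after PBS and DT.

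**Figure D3:**
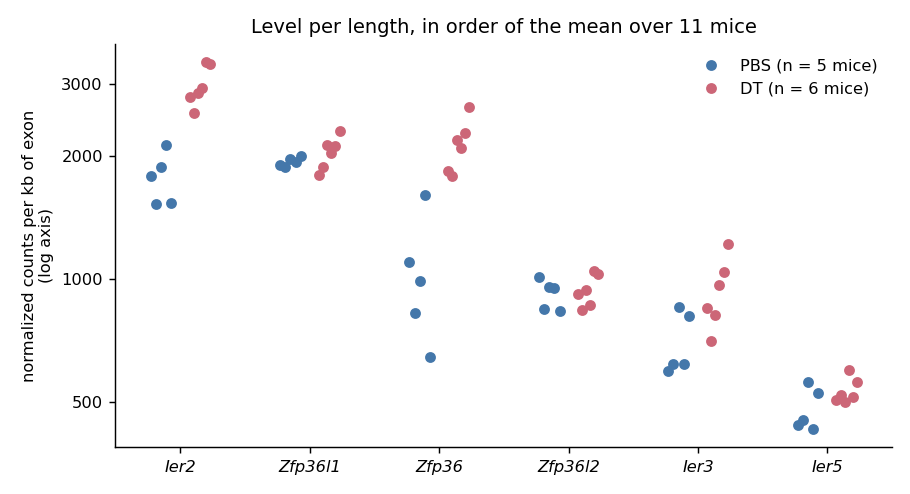
Normalized counts per kb of exon (vertical log axis) of each gene in every mouse, PBS in blue (n = 5) and DT in red (n = 6), ordered by the mean over 11 mice. Zfp36 lies below Zfp36l1 in all PBS mice and reaches its level after DT, and Ier5 is the lowest.

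Neighbours in this order were compared within each mouse by their log2 ratio over 11 mice. For the 3 pairs with Ier2 or Zfp36 the ratio carries the treatment difference by which these genes were chosen, so it is given by group and without a test. Ier2 over Zfp36l1 was 0.23 ± 0.39 (SD, n = 11), with Ier2 the higher in 1 of 5 PBS mice and 6 of 6 DT mice. Zfp36l1 over Zfp36 was 0.41 ± 0.63, with Zfp36l1 the higher in 5 of 5 PBS mice and 1 of 6 DT mice. Zfp36 over Zfp36l2 was 0.69 ± 0.62, with Zfp36 the higher in 3 of 5 PBS mice and 6 of 6 DT mice. The place of Ier2 and Zfp36 among these genes was thus not the same in the groups.

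The other 2 pairs both hold Ier3 and are likewise given without a test. Ier3 exceeded Ier5 per kb in 11 of 11 mice, by 0.67 ± 0.23 (SD) on the log2 scale. That ratio carries part of the treatment difference (log2 difference 0.41 for Ier3 and 0.15 for Ier5), but Ier3 was the higher per kb in every mouse of both groups. Zfp36l2 exceeded Ier3 in 5 of 5 PBS mice and 4 of 6 DT mice, by 0.20 ± 0.31 (SD, n = 11). This ratio carries the treatment difference of Ier3 (0.41, against 0.03 for Zfp36l2), so it is given without a test.

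The place of Zfp36 also depends on the annotation. Its exons span 3470 bases when joined, but only 1765 lie downstream of the RefSeq start, and with that length Zfp36 had 2029.6 ± 714 normalized counts per kb after PBS and 4202 ± 609 after DT. It then came first in 8 of 11 mice, and the mean log2 ratio of Zfp36l1 to Zfp36 was -0.56. With the RefSeq start of Ier3 (1102 bases), Ier3 also came above Zfp36l2 after DT (956 against 940 per kb). After PBS it stayed below (719 against 919). Division by length also assumes reads from the whole transcript. The libraries were made with a kit of that kind, while the reads were trimmed by a guide for 3′ end sequencing, and with no division Ier2 fell below Zfp36l1 (-0.74) and Ier3 below Ier5 (-0.86).

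Within the Zfp36 family, the share of Zfp36 in the summed level per kb of the 3 paralogs was 18.6–35.8% in PBS mice (mean 26.0% ± 6.33, SD, n = 5) and 39.7–44.1% in DT mice (41.6% ± 1.53, SD, n = 6). Zfp36l1 made up 43.1–57.5% and 38.6–41.6%, and Zfp36l2 21.1–25.2% and 17.2–20.1%. With the RefSeq length the share of Zfp36 was 30.96–52.3% and 56.4–60.8%. As the treatment contrast chose these genes, the shares are given without a test.

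Variation between mice of the same group does not use that contrast, and it was examined next. The group mean was subtracted from each log2 value, and the 15 pairs of members were correlated over 11 mice, with exact permutation of the mice within each group. The strongest pair was Ier2 with Zfp36 (Pearson r = 0.879, exact permutation p = 0.00094, adjusted p = 0.0141, and Spearman rho = 0.882, exact permutation p = 0.00183, adjusted p = 0.0271). Without the 2 mice farthest from the median of Ier2, PBS 4 and DT 5, r was 0.850, and without PBS 3 and PBS 5 it was 0.929. Over the fits that left out 1 mouse r lay between 0.823 and 0.914, and the pair passed the threshold in all 11. The mice that carried it were high or low in both genes. PBS 4 was 0.71 above its group mean in Zfp36 and 0.28 above it in Ier2, whereas PBS 5 was -0.61 and -0.20 from it, and DT 2 was -0.24 and -0.22.

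Ier2 also varied with Zfp36l2 (r = 0.821, exact permutation p = 0.00604, adjusted p = 0.0453, and rho = 0.845, exact permutation p = 0.00406, adjusted p = 0.0271), with r = 0.859 without PBS 4 and DT 5. Its adjusted p lay close to the threshold of 0.05. The call by r was lost without PBS 2, PBS 3, PBS 5, DT 1, DT 2, DT 3, DT 5 or DT 6 (r = 0.777 to 0.828), and without PBS 3 and PBS 5 together (r = 0.783). Zfp36 and Zfp36l2 passed by rank (rho = 0.818, exact permutation p = 0.00542, adjusted p = 0.0271) but not by r (r = 0.680, exact permutation p = 0.0184, adjusted p = 0.0731), which passed without PBS 4 (0.842). With PBS 4 and PBS 5 left out r was 0.834. Although Zfp36l2 had nearly the same mean in both groups, its deviations from the group mean thus tended to go with those of Ier2. The call by r for that pair depended on single mice.

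Ier3 and Ier5 were correlated with each other at r = 0.716 (exact permutation p = 0.0201, adjusted p = 0.0731) and rho = 0.655 (exact permutation p = 0.0396, adjusted p = 0.149), short of the threshold, and r was 0.469 without PBS 3 and PBS 5. Among controls, in PBS 3 Ier3 was 0.30 and Ier5 0.22 above the group mean, and in PBS 5 they were 0.23 and 0.14 above it, in the same mouse whose Zfp36 was the lowest of all. Ier3 with Zfp36 had an r of 0.0063 (exact permutation p = 0.986) and a rho of 0.10 (exact permutation p = 0.785), and without PBS 3 and DT 6 r was -0.251. In the 6 DT mice alone, a setting added after seeing the data, r was 0.874 (exact permutation p = 0.0292, adjusted p = 0.0875) and rho 0.829 (exact permutation p = 0.0583, adjusted p = 0.146), with r = 0.479 without DT 2 and DT 6. Ier2 with Ier3, at r = 0.406 (exact permutation p = 0.233) and rho = 0.445 (exact permutation p = 0.196) over 11 mice and r = 0.612 without PBS 4 and DT 5, had r = 0.936 (exact permutation p = 0.00694, adjusted p = 0.0521) and rho = 0.886 (exact permutation p = 0.0333, adjusted p = 0.125) in the DT mice, with r = 0.927 without DT 5 and DT 6. Ier3 with Ier5 there had r = 0.479 (exact permutation p = 0.344) and rho = 0.429 (exact permutation p = 0.419), with r = 0.467 without DT 2 and DT 6. The highest r in the DT mice was that of Zfp36 with Zfp36l1 (r = 0.970, exact permutation p = 0.00556, adjusted p = 0.0521, and rho = 0.886, exact permutation p = 0.0333, adjusted p = 0.125). It was 0.978 without DT 2 and DT 6. Over 11 mice that pair had r = 0.337 (exact permutation p = 0.117) and rho = 0.445 (exact permutation p = 0.121), with r = 0.841 without PBS 4 and PBS 5. In the DT mice alone 0 of 15 pairs passed by r or rho, and 5 had an unadjusted exact permutation p under 0.05 by r. In the PBS mice alone r was -0.508 for Ier3 with Zfp36, -0.160 for Ier2 with Ier3 and -0.313 for Zfp36 with Zfp36l1. For Ier3 with Ier5 it was 0.982 in the PBS mice. These PBS values were not tested. Over 11 mice, Ier3 with Zfp36l1 reached r = 0.693 (exact permutation p = 0.0244, adjusted p = 0.0731) and rho = 0.564 (exact permutation p = 0.0968, adjusted p = 0.243), with r = 0.545 without PBS 3 and DT 6. Of the 15 pairs 12 were positive, 2 passed by r and 3 by rho. Whether the r of one pair differs from that of another was not tested.

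**Figure D4:**
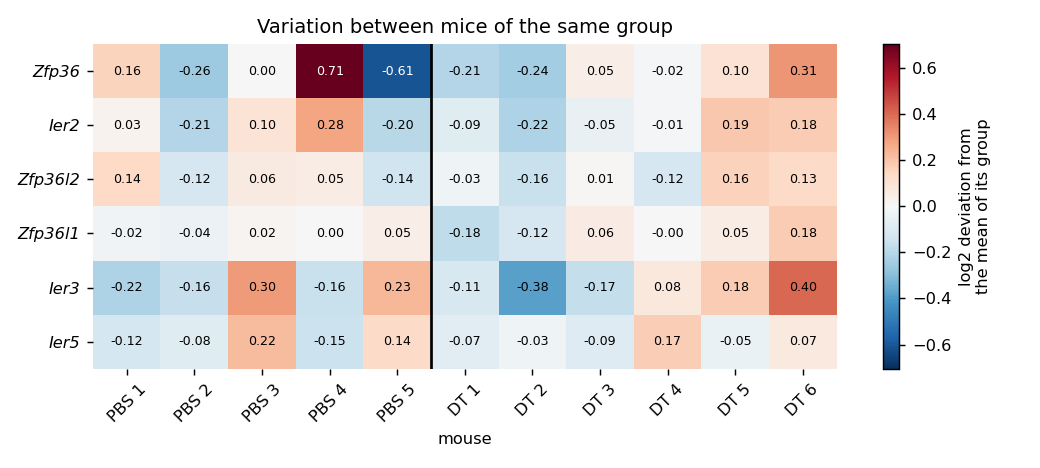
Deviation of each mouse (columns) from the mean of its group for each gene (rows), in log2 units with red above and blue below the mean, PBS left and DT right of the line. Zfp36, Ier2 and Zfp36l2 are low together in PBS 2, PBS 5 and DT 2, while Ier3 and Ier5 are highest among controls in PBS 3 and PBS 5.

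The genes whose deviations were most like those of each member were then listed, from the 10019 genes whose mean reached 100 normalized counts, as a description over 11 mice that share the same libraries. They are the 3 highest of 10018 in each case, so that high values follow from the choice. For Zfp36 they were the AP-1 subunit Jun (r = 0.984), the zinc-finger factor Egr1 (0.976) and the AP-1 subunit Fos (0.972). For Ier2 they were Junb (0.963), Dusp1, which encodes a phosphatase of MAP kinases (0.931), and Gli3, a transcription factor of hedgehog signalling (0.929). Zfp36 was 11th in the list of Ier2, and Ier2 was 38th in that of Zfp36. None of these early response genes was in the lists of Ier3 and Ier5. Ier3 had Slc25a25, a mitochondrial carrier (0.969), the chromatin remodeller Chd1l (0.956) and the mitotic kinesin Kif2c (0.930), and Ier5 had the epithelial tyrosine kinase Ptk6 (0.963), Mad2l1bp (0.956) and Fndc9 (0.954). Zfp36l1 was followed less closely, by Tiparp (0.869), Rapgef4 (0.864) and Klhl8 (0.862). The list of Zfp36l2 held Ngly1 (0.937), Fbxo33 (0.925) and Zc3hav1 (0.913), the last of which encodes another zinc-finger protein that directs RNA to decay. Leaving out PBS 3 and PBS 5 left each of these values between 0.862 and 0.986.

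Genes that work with the members were read from the fit over all genes, in 8 lists. Over all 19170 genes, 2204 had an unadjusted p under 0.05 (limma), the background for the counts at that level given below. Among 46 other early response genes with values, 21 rose after DT and 0 fell (limma, adjusted p under 0.1), with a median log2 difference of 0.43. The list overlaps genes already known to differ here and is not independent evidence. Those past the threshold in each of the 11 fits that left out 1 mouse were 11 genes. They were Atf3 (log2 difference 2.68, SE 0.410), Fos (1.70, SE 0.256), Gadd45g (1.27, SE 0.223), Jun (1.11, SE 0.168), Dusp1 (1.02, SE 0.147), Dusp6 (0.77), Btg2 (0.76), Junb (0.68), Gadd45a (0.58), Rhob (0.52) and Plk2 (0.45). The difference of Zfp36 lay beside that of Jun, and that of Ier2 beside Btg2 and Dusp6. Egr2 (2.15), Ccn1 (1.63), Egr1 (1.58), Socs3 (1.501), Klf2 (0.97), Csrnp1 (0.66), Klf6 (0.51), Jund (0.40), Gadd45b (0.38) and Trib1 (0.27) also rose, but were past the threshold in only 2 to 8 of the 11 fits. Egr1 was lost without DT 5, DT 6 or PBS 2 (adjusted p = 0.108 to 0.117 by limma), and Klf6 was kept only without PBS 4 or PBS 5. Fosb (2.19) and Plk3 (0.37) had the smallest p among those that did not pass. With PBS 3 and PBS 5 left out, 30 genes of the list were higher and 1 lower, against 1967 past the threshold among all 19170 genes.

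Upstream regulators did not pass at the level of their mRNA. Among 10 genes of serum response factor and its ERK partners 0 were past the threshold, and 3 had an unadjusted p under 0.05. Srf had a log2 difference of -0.24 (SE 0.067, 950.3 ± 71.4 against 806 ± 70.1 normalized counts) and Elk3 of -0.43 (SE 0.123). Of 17 genes of the p38 and MK2 pathway that controls tristetraprolin 0 passed and 4 had an unadjusted p under 0.05, with Mapkapk3 at 0.14 and Map2k6 at -0.30. The phosphorylation through which this pathway acts is not measured by RNA sequencing. Without PBS 3 and PBS 5, 2 and 5 genes of these lists passed, against 1967 of all genes.

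No gene of the deadenylases or of the decapping and exonuclease machinery passed. Of 18 deadenylase genes 0 passed and 4 had an unadjusted p under 0.05, with a median log2 difference of 0.04. Cnot6l, a catalytic subunit of CCR4-NOT, had -0.18 (SE 0.050), and Tob1, which links the deadenylase to its targets, had 0.25 (SE 0.077). Of 24 decapping and exonuclease genes 0 passed and 2 had an unadjusted p under 0.05, with a median of 0.02, the exonuclease Xrn1 at -0.31 and the decapping enzyme Dcp2 at -0.18. Leaving out PBS 4 gave 1 deadenylase gene that was higher, and leaving out PBS 3 and PBS 5 gave 2 that were lower, with 1 higher and 1 lower among the decapping and exonuclease genes. In the latter setting 1967 of all genes passed.

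Among 19 other proteins that bind AU-rich elements or destabilise mRNA 1 passed and the median was -0.08. Hnrnpd, which encodes the AU-rich element binding protein AUF1, fell from 1817 ± 129 (n = 5) to 1419 ± 181 (n = 6) normalized counts (log2 difference -0.36, SE 0.080, limma adjusted p = 0.0782), opposite in sign to Zfp36. This call was lost without DT 1, DT 2, DT 4, DT 5, DT 6, PBS 1, PBS 2 or PBS 3 (limma adjusted p up to 0.204). Rc3h2, which encodes the roquin paralog, had -0.25 and Elavl1, which encodes the stabilising protein HuR, had 0.16, and neither passed. Without PBS 3 and PBS 5, 0 genes of the list were higher and 4 lower, against 1967 of all genes past the threshold.

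Textbook targets of the Zfp36 proteins, mostly cytokines and growth regulators, did not pass either. Of 35 such genes 32 had values, 0 passed in either direction and 7 had an unadjusted p under 0.05 (limma). The median log2 difference was -0.06, with 14 of 32 positive. The smallest p belonged to Cdk6, which encodes a cell cycle kinase (-0.25, SE 0.070). The cytokines Il2, Il6 and Il10 are listed without a value, and 8 of the 32 had a mean under 10 normalized counts, at which a difference is poorly measured. Without PBS 3 and PBS 5, 3 genes of the list were higher and 4 lower, against 1967 of all genes past the threshold.

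Among 18 genes of PP2A, HSF1 and heat shock chaperones, listed for their link to the IER proteins, 2 passed, beside 0.558% of all genes. In this list 7 had an unadjusted p under 0.05 (limma). Both genes that passed are heat shock genes. The list was chosen with earlier results of these data known and is not independent evidence. Dnajb1, a heat shock gene driven by HSF1, rose from 5077 ± 430.1 (n = 5) to 7479 ± 849 (n = 6) normalized counts (log2 difference 0.56, SE 0.076, limma adjusted p = 0.00815) and passed in all 11 fits that left out 1 mouse. Hspa1a, which encodes the chaperone HSP70, rose from 912 ± 205 to 1455 ± 226 (0.68, SE 0.127, limma adjusted p = 0.0375), a call lost without DT 5, DT 6, PBS 1 or PBS 2. Its near-identical copy Hspa1b had 0.35 (SE 0.109) and did not pass, and reads of these copies may be split by the counting. The remaining genes, the PP2A subunits among them, did not pass, with Ppp2r5a at 0.14. The list had a median of 0.06, and Hsf1 itself was not among the genes past the threshold. With PBS 3 and PBS 5 left out, 5 genes of the list were higher and 0 lower, against 1967 of all genes past the threshold.

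**Figure D5:**
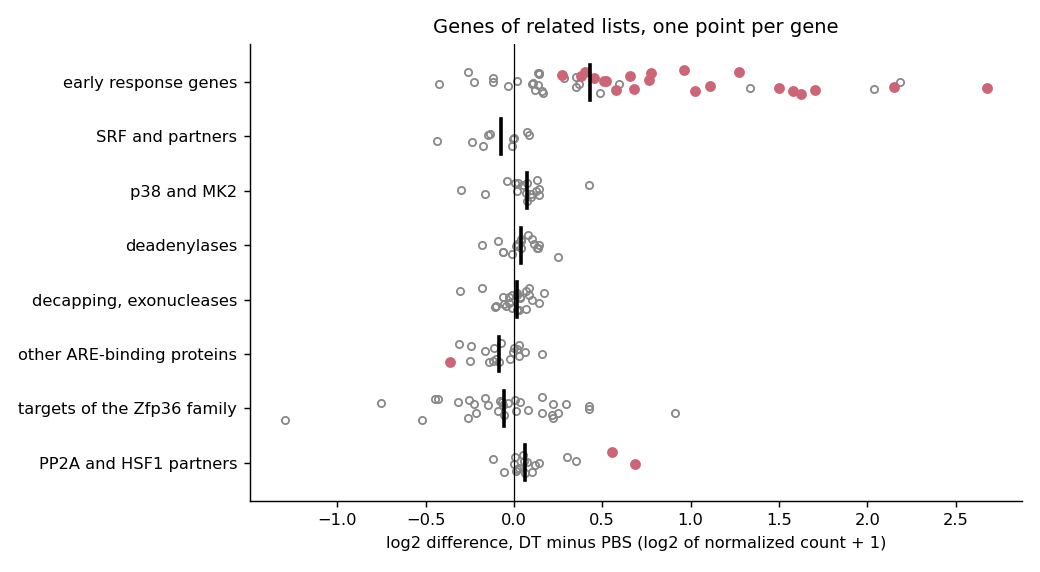
Log2 difference, DT minus PBS (horizontal axis), of each gene (points) in 8 lists of genes that work with the members. Filled red points passed the adjusted p of 0.1 in the fit over all genes, open points did not, and the black line is the median of the list. Filled points are found among early response genes (21), other proteins that bind AU-rich elements (1) and PP2A and HSF1 partners (2).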

How the data were processed

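Poly(A) libraries of gingival epithelium were made with a stranded mRNA kit. The authors trimmed the reads (12 bases at the 5′ end), aligned them with TopHat, counted them per gene with HTSeq, kept genes whose counts summed to at least 10 and scaled them by DESeq2 size factors. The deposited table therefore holds normalized counts per gene and mouse, for 19170 of 55414 genes. The methods name GRCm38 with Ensembl release 89, whereas the submitters' processing notes name GRCm39 (cutadapt 2.10, TopHat2 2.1.1, HTSeq 2.01, DESeq2 1.36.0). Positions here are those of GENCODE M21 on GRCm38, matched by gene identifier, and 99.7% of genes had a length.

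In each mouse 100% of values under 2000 reads were whole multiples of 1 read (tolerance 0.05 reads), which gave the estimated depth. Another check of these steps did not recover whole reads in every mouse, so the depth is an estimate and no count test was run. This precision covers counting error only. Differences were fitted with limma 3.58.1 (R 4.3.3, intensity trend) on log2(normalized count + 1) over all 11 mice, without covariates, and adjusted by Benjamini-Hochberg over 19170 genes at 0.1. In simulated data, with each gene drawn independently of the others, the fit recovered 180 of 200 changed genes and called 17 of 18970 unchanged ones. The simulated mice shared no structure such as that which set PBS 3 and PBS 5 apart. These rates therefore cannot be taken as those of the fit on the real mice. Each library is labelled as a replicate and was taken as 1 mouse. The members, the lists and the rule for naming genes (all members, every list gene that passed and at most 2 others with the smallest p, and the 3 genes most like each member) were chosen with earlier results of these data known. Each replicate pair of libraries differed, with no library deposited more than once. Of the genes so chosen 1 is not reported here.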

Additional observations from a re-analysis of the deposited data

How the results depend on the processing

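The number of genes past the threshold was 107. It was 27–259 when 1 mouse was left out (lowest without DT 5, highest without PBS 5), 189 with array weights and 1967 (922 higher, 1045 lower, against 60 and 47) without PBS 3 and PBS 5, a setting chosen after seeing the data. Deviations of mice with the same title number had correlations of -0.233 to 0.324. Each value rests on a pair of mice, so it cannot tell whether a number marks mice that belong together. What the numbers stand for was not tested. With a replicate block by title number 35 genes passed. With a replicate block by library number 0 genes and 0 members passed, at log2 differences of 0.72 for Ier2 and 1.08 for Zfp36. Members past the threshold were 4 without PBS 3 and PBS 5 and 2 whenever 1 mouse was left out. Other pseudocounts, a filter on low values and TMM scaling left the count within 104 to 113 and the members at 2. Zfp36l2 lay between -0.0020 (without PBS 5) and 0.0676 when 1 mouse was left out, and Ier5l turned to 0.00033 without PBS 3 and PBS 5.

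Level ratios ranged, when 1 mouse was left out, over 0.19–0.29 for Ier2 over Zfp36l1, 0.29–0.47 for Zfp36l1 over Zfp36, 0.62–0.80 for Zfp36 over Zfp36l2, 0.15–0.25 for Zfp36l2 over Ier3 and 0.63–0.69 for Ier3 over Ier5. Ier2 over Zfp36l1 was 0.33 without PBS 3 and PBS 5. Undivided counts, added after seeing the data, gave -0.74 for Ier2 over Zfp36l1, 1.84 for Zfp36l2 over Ier3 and -0.86 for Ier3 over Ier5, and the RefSeq start gave -0.56 for Zfp36l1 over Zfp36. Correlated pairs numbered 1–3 when 1 mouse was left out and 0 in the DT mice alone, a setting with fewer mice. The cause of these changes was not tested. Of 47 named genes 45 kept their sign in every setting. The planned edgeR and DESeq2 fits on recovered reads were not run, because whole reads were not recovered in every mouse by each check. Genes with a mean under 10 have a large counting error.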

Other observations

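Counting error was small for all 6 genes, from 1.29% of the level for Zfp36l1 to 3.25% for Ier3, while the CV between mice reached 35.2% for Zfp36 and 19.5% for Ier3 in its more variable group. Zfp36l1 after PBS was the exception, with 2.38% between mice. The CV of Zfp36 was lower after DT than after PBS (14.5% against 35.2%), that of Zfp36l1 was higher (8.92% against 2.38%), and that of Ier2 was 11.1% against 14.4%. These differences in spread were not tested. Among the DT mice, DT 6 had the highest values of Ier3, Zfp36 and Zfp36l1, and DT 2 had the lowest of Ier2, Ier3, Zfp36 and Zfp36l2.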
